A study of Arabidopsis thaliana with 23 samples.

Results

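The comparison described here set cortex/endodermis initial (CEI) cells against ground tissue in which neither SHORT-ROOT (SHR) nor SCARECROW (SCR) had yet been induced. Its group means came from 7 of the 23 ATH1 arrays of the series, chosen by their labels alone. The spread behind its p-values was estimated in a fit of all 23. The CEI group was 3 arrays of cells sorted with a CYCD6 marker GFP line from Columbia seedling roots grown for 5 days on standard medium. The uninduced group was 4 arrays of cells sorted with the J0571 enhancer trap, also from Columbia roots at 5 days and labelled 0 h on 1 micromolar dexamethasone (Dex): 2 arrays of a line carrying inducible SHR (SHR 0 h) and 2 of a line carrying inducible SCR (SCR 0 h). The other 16 arrays followed both lines at 1, 3, 6 and 12 h on Dex. The sources used here do not say whether the inducible lines keep their own SHR and SCR genes. Marker line, transgene, medium label and sort all differ between the CEI arrays and the 0 h arrays, so their parts in any difference cannot be told apart. The sample protocols describe cut roots taken into RNA buffer, whereas the source names give sorted cells. The labels name the arrays of a group biological replicates, and the p-values measure the spread between them. Each array is 1 bulk RNA, in which fewer cells of a type and less RNA per cell cannot be told apart.

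The ground tissue of the Arabidopsis root is the endodermis and the cortex, and both layers descend from the CEI. The daughter of this stem cell divides asymmetrically, parallel to the root's surface, to give 1 cell to each layer. SHR moves from the stele into the neighbouring layer, meets SCR there, and together they switch on the D-type cyclin gene CYCD6;1, the gene after which the marker line of the CEI sort is named. Cells above the initials leave the cell cycle, elongate, loosen and remodel their walls and take on the features of their layer.

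Levels are MAS5 signals on a linear scale, and differences are CEI minus 0 h of log2(signal + 10), which understates the change of genes near 0. Correlation of log2 values across all 22810 probe sets was 0.959 to 0.970 among CEI arrays, 0.944 between the SHR 0 h arrays and 0.968 between the SCR 0 h arrays. It was 0.901 to 0.942 between a CEI array and a 0 h array. Median signal was 63.9 to 79.9 on the 7 arrays. The 15983 probe sets above the 40th percentile of their array on at least 2 arrays were tested. The annotation named 1 gene for 8850 (55.4%) of them, and only 1229 of these had a symbol other than a locus number. SHR, SCR and CYCD6;1 were not among them, so the labels could not be checked through these genes.

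CEI cells differed from uninduced ground tissue at 3241 probe sets (20.3% of those tested; limma, Benjamini-Hochberg adjusted p under 0.05, pooling both lines at 0 h). Of these 1538 (9.62% of those tested) were higher and 1703 (10.7%) were lower in CEI cells. Against the SHR line alone 951 (5.95%) were higher and 1172 (7.33%) lower, and against the SCR line alone 732 (4.58%) were higher and 1095 (6.85%) lower. Probe sets that passed all 3 contrasts with 1 sign are called consistent here, and there were 452 (2.83%) higher and 692 (4.33%) lower. Of the 3241 pooled calls 3240 had the same sign against each line. The 2 lines share the CEI arrays in these contrasts, so the shared sign is a description. The lines differed from each other at 0 h at 1 probe set.

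The consistent differences were larger on the low side. Among the 692 lower probe sets 289 differed more than 4-fold and the median difference was −1.84, and among the 452 higher ones 79 did and the median was 1.40. The median over all tested probe sets was 0.04. Every CEI array lay above all 4 arrays at 0 h for the 452, and below them for the 692. Over all tested probe sets 19.4% were so placed above and 14.4% below. The rule chose its probe sets on these same arrays, so their separation describes them and is no further support. The 3 CEI arrays also lay above all 20 arrays of the inducible lines for 366 of the 452, and below all 20 for 555 of the 692. Over all tested probe sets 7.38% lay above and 6.13% below. These 20 include the 4 arrays at 0 h whose means the rule used, and all 20 entered its estimate of spread. At the edge of the rule, AT5G24460 and HTB11 lay just inside, with a largest adjusted p of 0.0498 and 0.0499 over the 3 contrasts, and AT2G01900 lay just outside at 0.0504.

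**Figure D1:**
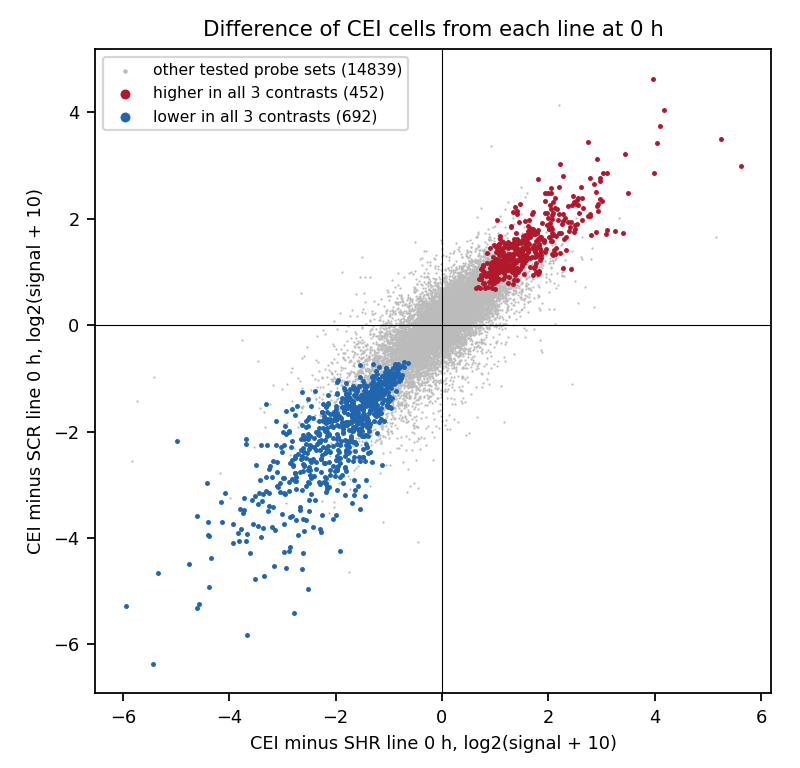
Each point is a tested probe set, with the CEI minus SHR 0 h difference on the horizontal axis and the CEI minus SCR 0 h difference on the vertical axis, both in log2(signal + 10). Red points are the 452 consistent higher probe sets and blue points the 692 consistent lower ones, which reach further from 0.

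The counts depended on single arrays. Without SCR 0 h replicate 1 the pooled contrast called 745 higher and 1021 lower, and without CEI replicates 1 and 2 it called 876 and 784 higher. The 452 became 221, 214 and 292 without CEI replicates 1, 2 and 3, 216 and 229 without SHR 0 h replicates 1 and 2, and 61 and 184 without SCR 0 h replicates 1 and 2. The 692 became 453 without CEI replicate 3, 238 without SHR 0 h replicate 1, and 197 and 385 without SCR 0 h replicates 1 and 2. With 1 array left in a line, its spread is taken from the other groups. None of the 1144 consistent probe sets changed sign in any of these fits. This was fixed in advance, because their CEI arrays did not overlap the 0 h arrays, and it is no support. A gene is called array-proof below when its pooled call stood whichever of the 7 arrays was left out. Where a group's lowest count is given below for 1 left-out array, leaving out another array sometimes lowered it as far.

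BBM, XTH21 and AUR1 were taken as markers of the CEI sort, with earlier results of these arrays known, so their levels describe the sort and do not test it. BBM (AT5G17430) encodes an AP2-type transcription factor of the PLETHORA family, which maintains root stem cells. Its signal was 589, 384 and 397 on the CEI arrays, against 78.1 and 52.1 on the SHR 0 h arrays and 109.5 and 104 on the SCR 0 h arrays. The lowest CEI array was over 3 times the highest 0 h array. The difference was 2.30 ± 0.47 (SE, limma adjusted p = 0.00277), array-proof. XTH21 (AT2G18800), a xyloglucan endotransglucosylase/hydrolase that cuts and rejoins wall xyloglucan, stood at 400.4, 363 and 588, against 27.6 and 12.3 at SHR 0 h and 13.4 and 4.09 at SCR 0 h. AUR1 (AT4G32830), an Aurora kinase of the mitotic spindle and cell plate, stood at 741, 624 and 537, against 319 and 260.3 at SHR 0 h and 279 and 263 at SCR 0 h. All 3 markers were thus above every 0 h array. AUR1 passed the pooled contrast (1.14 ± 0.35, limma adjusted p = 0.0291) but neither line alone, and its call was lost without any of CEI replicates 1 and 2, SHR 0 h replicate 2 and both SCR 0 h replicates.

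Markers of the ground tissue layers and their neighbours gave a mixed picture. The 2 measured loci on the cortex marker list were lower in the pooled contrast. AT1G62500 had 308, 175 and 223 in CEI cells, against 1229.8 and 209.7 in SHR 0 h and 690.1 and 1176 in SCR 0 h, and AT1G09750 had 37.3, 343 and 369, against 938 and 268 in SHR 0 h and 793 and 888 in SCR 0 h. For both genes SHR 0 h replicate 2 lay among the CEI arrays, so the groups overlapped. The pooled differences were −1.53 ± 0.50 and −1.83 ± 0.61 (limma adjusted p = 0.0399 and 0.0426), and leaving out SHR 0 h replicate 1, either SCR 0 h replicate or CEI replicate 1 ended both calls. Neither of the 2 measured endodermis loci passed, also at an unadjusted p under 0.05: the receptor kinase gene GSO1, which the Casparian strip requires, differed by −0.19 ± 0.39 and AT1G61590 by 0.74 ± 0.53. For SHR 0 h replicate 2 the summed signal of the cortex loci was 477 and of the endodermis loci 193, against 2167 and 684 on SHR 0 h replicate 1. The part of this array in the results was not tested beyond leaving it out.

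Among the SHR/SCR pathway genes that were named, SLY2 (AT5G48170), which acts in gibberellin signalling as an F-box protein, had 307, 157 and 268 in CEI cells, against 93.3 and 38.7 in SHR 0 h and 61.8 and 65.4 in SCR 0 h. It was higher in the pooled contrast (1.76 ± 0.46, limma adjusted p = 0.0137), though not without CEI replicate 1 or 3. JKD, a zinc-finger partner of SHR and SCR, differed by 0.23 ± 0.35, and AT5G41920, which RefSeq lists as SCARECROW-LIKE 23, had an adjusted p of 0.997. Both overlapped between groups.

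The other layers were thinly covered by the annotation. The 1 measured stele gene, LHW (AT2G27230), a bHLH factor required for vascular cell divisions, had 1708, 1527 and 1604 in CEI cells, against 723 and 500.0 in SHR 0 h and 495 and 557 in SCR 0 h. It was consistent and array-proof, at 1.50 ± 0.36 (limma adjusted p = 0.00776). The epidermal hair expansin genes EXPA7 and EXPA18 had summed signals of 149 to 432 on CEI arrays, 35.1 and 420.4 on SHR 0 h arrays and 149.8 and 262 on SCR 0 h arrays, and neither passed. Of the stem cell niche list BBM passed and AGL42 (0.97 ± 0.37), UPB1 (−0.74 ± 0.35) and CR4 (0.21 ± 0.43) did not. No root cap marker was measured under a name. The part of cells of other types in the sorted fractions was not tested.

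**Figure D2:**
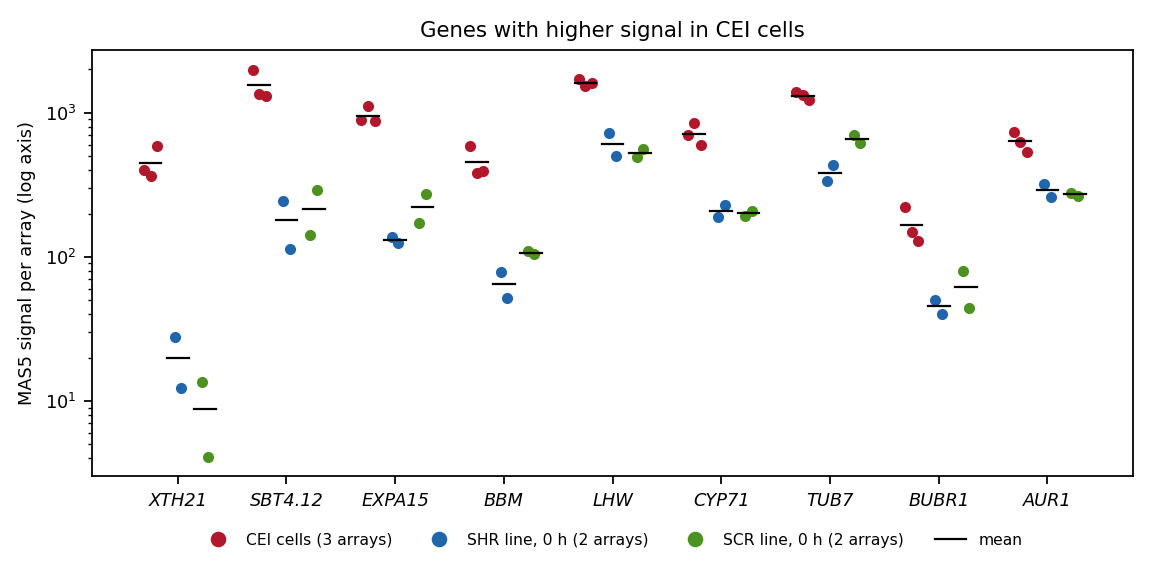
Signal on each of the 7 arrays (points, log axis) for 9 genes that passed the pooled contrast on the high side, with CEI cells left of the SHR and SCR lines at 0 h and bars at the group means. For each gene the CEI arrays lie above all 4 arrays at 0 h, from BBM at 384 to 589 to LHW at 1527 to 1708.

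To describe function beyond the extremes, 24 groups were formed from the symbols the annotation gives to tested probe sets, after the values had been seen. Not all symbols were placed in a group. A group is described by its count of pooled calls, read beside the 9.62% higher and 10.7% lower over all probe sets, and by its median beside 0.04.

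Genes of cell division were mostly on the high side in CEI cells. Of the 25 mitosis and cytokinesis genes 22 had a difference above 0, 8 were called higher and 0 lower, and the median was 0.71. BUBR1, a spindle checkpoint protein, had 221, 150.0 and 129.7 in CEI cells, against 50.6 and 40.4 in SHR 0 h and 80.4 and 43.9 in SCR 0 h. 3xHMG-box1, a DNA-bending protein of mitotic chromosomes, had 491, 319 and 363, against 169 and 112 in SHR 0 h and 138 and 102 in SCR 0 h. Neither gene overlapped between the groups. Their differences were 1.48 ± 0.39 and 1.52 ± 0.44 (limma adjusted p = 0.0148 and 0.0233). The Aurora kinase AUR2 (1.38 ± 0.43), its 3xHMG-box2 counterpart on chromosomes (1.28 ± 0.41), the histone H3 kinase Haspin (1.06 ± 0.33) and the preprophase band protein TON1B (0.62 ± 0.21) also passed the pooled contrast. TPLATE, an endocytic adaptor named for its place at the cell plate, was the consistent member, with 735, 786 and 862 in CEI cells, against 418 and 556 in SHR 0 h and 482 and 482 in SCR 0 h (0.71 ± 0.18, limma adjusted p = 0.0113). It was also the array-proof one of the 8, and the count was between 1 (without CEI replicate 1) and 5 (without CEI replicate 3). SIM (AT5G04470), a cyclin-dependent kinase inhibitor that promotes endoreduplication, was lower, with 149, 156 and 249.7 in CEI cells, against 454 and 575 in SHR 0 h and 409.8 and 305 in SCR 0 h. Its difference was −1.19 ± 0.34 (limma adjusted p = 0.022), and it was lost without CEI replicate 1 or 2, SHR 0 h replicate 2 or SCR 0 h replicate 1.

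Replication, repair and chromatin genes were also mostly above 0. In replication, repair and recombination 25 of 28 members were above 0, 6 were called higher and 1 lower, and the median was 0.51. The called ones were the topoisomerase TOP3A (1.22 ± 0.32), the uracil-DNA glycosylase UNG (1.24 ± 0.41), the helicase RECQI1 (1.15 ± 0.38), the polymerase subunits POLA3 (0.97 ± 0.33) and POLD3 (0.94 ± 0.33), and APTX (0.77 ± 0.23), against the ligase ATLIG4 on the low side (−0.66 ± 0.21). None was consistent or array-proof, and the count of higher calls was 0 without CEI replicate 2 and at most 2 in the fits that left out an array. The DNA primase subunit POLA3 illustrates the size, with 877, 608 and 842 in CEI cells, against 377 and 421 in SHR 0 h and 430.5 and 325 in SCR 0 h.

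In chromatin and histones 24 of 28 probe sets were above 0, 6 were called higher and 1 lower, 3 were consistent and the median was 0.39. The lower one was a probe set of the DNA glycosylase gene DME (−0.53 ± 0.17), whose other probe set did not pass (−0.34 ± 0.35). CYP71 (AT3G44600), a nuclear cyclophilin with WD40 repeats that binds histones and is no cytochrome P450, had 696, 845 and 598 in CEI cells, against 189 and 229 in SHR 0 h and 192 and 208 in SCR 0 h. HDA15, a histone deacetylase, had 558, 1050.3 and 459.8, against 209 and 220.0 in SHR 0 h and 216 and 247 in SCR 0 h. CEI cells stood above all 4 arrays for both, by 1.74 ± 0.25 and 1.50 ± 0.28 (limma adjusted p = 0.000209 and 0.00147), and both calls were array-proof. The histone H2B genes HTB11 (0.99 ± 0.26, consistent) and HTB1 (0.99 ± 0.30, not consistent) also passed, as did the chromatin remodeller gene CHR24 (1.36 ± 0.36). Without CEI replicate 1 the count of higher calls was 2.

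Genes of RNA metabolism were also mostly above 0. Of 47 RNA processing and export genes 35 were above 0, 9 were called higher and 0 lower, with a median of 0.44. Y14 (AT1G51510), a core protein of the exon junction complex, had 3607, 2604 and 3353 in CEI cells, against 1433 and 1641 in SHR 0 h and 1483 and 1590.0 in SCR 0 h, and LSM1B, of the complex that promotes mRNA decapping, had 729, 923 and 956, against 353 and 490.0 in SHR 0 h and 365 and 463 in SCR 0 h. Both were consistent and array-proof at 1.04 (SE 0.23 and 0.20, limma adjusted p = 0.00462 and 0.00222), and the groups did not overlap. The exportin gene XPO1B (0.81 ± 0.22) passed the pooled contrast, as did YAO, a nucleolar WD40 protein gene (limma adjusted p = 0.0248). Leaving out CEI replicate 1 left 2 of the 9 calls. RNA polymerase and Mediator genes had 2 of 16 called higher (12.5%, near the 9.62% over all probe sets), NRPC2 (1.09 ± 0.37) and MED19A (0.78 ± 0.24), and ubiquitin-specific protease genes 4 of 12, UBP16, UBP21, UBP24 and UBP27, by 0.64 to 0.90. None of these 6 was array-proof, and the counts were 0 of 16 without CEI replicate 3 and 1 of 12 without CEI replicate 2.

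Transcription regulators of development went both ways, with 5 of 33 higher and 3 lower. Beside BBM and LHW, the higher ones were the bHLH gene SPT (1.15 ± 0.33), the MADS-box gene AGL21 (0.99 ± 0.27) and SAP (1.32 ± 0.32). The lower ones were the AP2-type genes tny (−2.35 ± 0.45) and SMZ (−1.02 ± 0.29), and LSH9 (−1.29 ± 0.33). The gene tny had 49.6, 80.9 and 45.0 in CEI cells, against 372 and 172 in SHR 0 h and 572 and 327 in SCR 0 h, a consistent and array-proof difference (limma adjusted p = 0.00188). SAP was array-proof but passed the SHR line alone and not the SCR line, and SPT, AGL21, SMZ and LSH9 each lost the call in 2 or more of the fits without an array.

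Of 31 wall-loosening genes 4 were higher, 4 were lower and 23 did not pass, with a median of −0.16; each direction is 12.9%, near the share over all probe sets. Of the 8 called, 7 were consistent and the same 7 array-proof. Expansins loosen the wall without cutting it, and EXPA15 (AT2G03090) had 888, 1108 and 874 in CEI cells, against 136 and 125 in SHR 0 h and 172 and 274 in SCR 0 h (2.43 ± 0.34, limma adjusted p = 0.000176). EXPA8 (AT2G40610) had 20.9, 31.7 and 51.4, against 774 and 729.8 in SHR 0 h and 399 and 437 in SCR 0 h (−3.73 ± 0.39, limma adjusted p = 1.96e-05). Neither gene's CEI arrays came near the 0 h arrays. Among the xyloglucan enzymes XTH21 was higher (against SHR 0 h and SCR 0 h alone, limma adjusted p = 0.000452 and 0.000175) while XTH18 (−2.62 ± 0.43), XTH32 (−2.30 ± 0.40) and XTH20 (−1.73 ± 0.40) were lower. XTH18 had 83.9, 251 and 159 in CEI cells, against 933 and 656 in SHR 0 h and 1371 and 1093 in SCR 0 h. XTH16 (1.60 ± 0.41) was higher in the pooled contrast with overlapping groups, and was lost without CEI replicate 3 or SCR 0 h replicate 2. GH9B8, an endoglucanase of glycoside hydrolase family 9, had 86.3, 129.8 and 73.7 in CEI cells, against 16.3 and 20.5 in SHR 0 h and 17.2 and 17.7 in SCR 0 h (1.90 ± 0.37).

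Wall synthesis and decoration genes gave 3 of 35 higher (8.57%) and 4 lower (11.4%), also near the share over all probe sets. The lower ones were all consistent and array-proof. They were the pectin methylesterase genes ATPMEPCRB (−3.17 ± 0.52) and PMEPCRF (−3.07 ± 0.44), the wall acetylation family member TBL41 (−3.09 ± 0.42), and COB (−1.44 ± 0.30), a membrane-anchored protein that orients cell expansion. TBL41 had 87.4, 93.2 and 78.7 in CEI cells, against 1489 and 415 in SHR 0 h and 954 and 729 in SCR 0 h. The higher ones, the xyloglucan backbone synthase family member CSLC12 (1.34 ± 0.36) and TBL19 and TBL30, were not consistent, and the count was 0 without CEI replicate 1.

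Called proteases and peroxidases lay on both sides. SBT4.12 (AT5G59090), a subtilisin-like protease, had 1998, 1354 and 1311 in CEI cells, against 245 and 114 in SHR 0 h and 141 and 289 in SCR 0 h (2.98 ± 0.55, limma adjusted p = 0.00147). SBT1.3 was higher by 1.77 ± 0.31, and the other 4 subtilases did not pass. Of 17 serine carboxypeptidase-like genes 2 were higher, SCPL45 (1.21 ± 0.29) and scpl46 (1.68 ± 0.37), and 3 lower, among them scpl35 (−1.48 ± 0.29), with a median of −0.55. Of 6 class III peroxidases found by their names 1 was higher and 2 lower. Members listed only by a locus number can be missing here, so this is no count of the family. The class III peroxidase gene Prx37 had 793, 650.2 and 786, against 127 and 57.4 in SHR 0 h and 127 and 87.1 in SCR 0 h (2.83 ± 0.48), whereas PRXR1 had 1419, 1580.0 and 1628, against 5207 and 5813 in SHR 0 h and 3356 and 4865 in SCR 0 h (−1.61 ± 0.16). AT5G64120, which RefSeq lists as peroxidase 71, was at 30.2, 11.7 and 48.9 in CEI cells, against 1876 and 425 in SHR 0 h and 1913 and 1133 in SCR 0 h (−4.96 ± 0.52, limma adjusted p = 2.08e-05). Both subtilases and the 3 peroxidases were consistent and array-proof.

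Further consistent and array-proof higher genes had other roles, most of them outside the function groups. The β-tubulin gene TUB7 had 1385, 1329.9 and 1232 in CEI cells, against 338 and 431 in SHR 0 h and 696 and 613 in SCR 0 h (1.38 ± 0.24). It was the 1 called member of 9 genes with tubulin in a name or synonym, which need not all encode tubulins. Among them TUB1 missed the threshold at −0.89 ± 0.33. The tetraspanin gene TET10 had 778, 886 and 862, against 227 and 145 in SHR 0 h and 260.1 and 251 in SCR 0 h (1.91 ± 0.43), while TET8 was lower by 1.56 (log2 −1.56 ± 0.41) and lost the call when replicate 1 of any of the 3 groups was left out. The ubiquitin-conjugating enzyme gene UBC37 was at 203, 180.1 and 159.8, against 21.7 and 28.4 in SHR 0 h and 28.2 and 31.4 in SCR 0 h (2.35 ± 0.33). Others were the plastid division gene FTSZ2-1 (1.22 ± 0.27), the ferroxidase gene LPR1 of the root's phosphate response (1.29 ± 0.29), the asparaginase gene ASPGB1 (1.25 ± 0.29) and the chaperone gene Hsp70-2 (1.71 ± 0.34).

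Most of the largest higher differences belonged to loci without a symbol or to probe sets without a gene. XTH21, AT5G45210, AT4G11290, AT4G16270 and AT3G50190 were among the 20 loci with the largest smaller line difference. Their signals at 0 h were mostly under the 40th percentile of the array (31.0 to 43.6 on the 7 arrays), where the pseudocount of 10 sets the exact difference and the order among them is not read. AT4G11290 had 1318, 1611 and 1496 in CEI cells, against 28.0 and 14.1 in SHR 0 h and 280.4 and 109.9 in SCR 0 h (pooled limma adjusted p = 6.66e-06). AT1G66250 had 2209, 2170.0 and 2347, against 331 and 236 in SHR 0 h and 312 and 331 in SCR 0 h (2.86 ± 0.43). AT3G56480 had 440.1, 422 and 435, against 42.4 and 68.2 in SHR 0 h and 44.8 and 66.6 in SCR 0 h (2.78 ± 0.33). In each the CEI arrays stood close together and clear of the 0 h arrays. For 29 of the 452 the signal was above the 40th percentile of the array on all CEI arrays and on none at 0 h. XTH21, GH9B8, UBC37 and ATOEP16-2, of the plastid's outer envelope, are the ones with a symbol. The CEI arrays alone were enough to bring these 29 into the test, so their p-values describe them and are no support. The same count over all tested probe sets was not made.

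**Figure D3:**
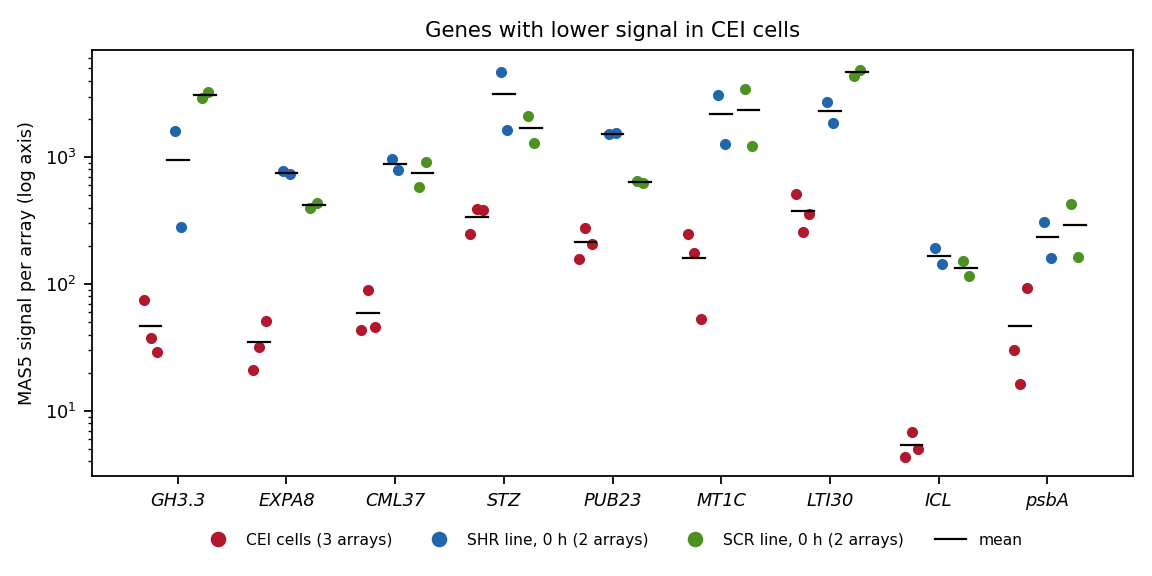
Signal on each of the 7 arrays (points, log axis) for 9 consistent lower genes, with CEI cells left of the SHR and SCR lines at 0 h and bars at the group means. For each gene the CEI arrays lie below all 4 arrays at 0 h, with ICL at 4.35 to 6.78 and GH3.3 at 29.3 to 74.5.

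Of 17 genes of auxin conjugation and response 4 were lower, 0 were higher and 13 did not pass, with a median of −0.80. GH3.3 (AT2G23170), an enzyme that joins auxin to amino acids and is itself induced by auxin, had 74.5, 37.4 and 29.3 in CEI cells, against 1607 and 282 in SHR 0 h and 2895 and 3233 in SCR 0 h. Its difference was −4.75 ± 0.54 (limma adjusted p = 3.71e-05), with the 2 SHR 0 h arrays far apart and both still above CEI cells. ARL, a regulator of organ growth by cell expansion, had 165, 129.7 and 108, against 1183 and 975 in SHR 0 h and 384 and 466 in SCR 0 h (−2.27 ± 0.26). Both were consistent and array-proof. ARL was placed in this group by its symbol, and its response to auxin was not tested here. GH3.17 (−1.71 ± 0.45) and the Aux/IAA gene IAA30 (−1.17 ± 0.31) passed the pooled contrast but were not consistent, and neither passed without SCR 0 h replicate 1, which left 2 of the 4.

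Genes of stress and calcium signalling were lower as well. STZ (AT1G27730), a zinc-finger repressor induced by many stresses, had 246, 389 and 380.4 in CEI cells, against 4688 and 1637 in SHR 0 h and 2107 and 1302 in SCR 0 h (−2.66 ± 0.35, limma adjusted p = 0.000107). CML37, a calmodulin-like calcium sensor, had 43.2, 90.0 and 45.6, against 968 and 789 in SHR 0 h and 577 and 914 in SCR 0 h (−3.60 ± 0.36, limma adjusted p = 1.46e-05). Both were consistent and array-proof, with no overlap between groups. Of 7 calmodulin-like genes 4 were lower (median −1.12), though CML37 alone stood without SCR 0 h replicate 1. Of 6 WRKY factors 4 were lower (median −1.45), and WRKY6 (−2.09 ± 0.37) and WRKY47 (−1.82 ± 0.32) were array-proof, while WRKY53 and WRKY22 were lost without SHR 0 h replicate 1. Of 8 plant U-box ubiquitin ligases 5 were lower (median −1.29). PUB23, which dampens immune signalling, had 157, 277 and 205 in CEI cells, against 1517 and 1538 in SHR 0 h and 651 and 622 in SCR 0 h (−2.19 ± 0.34), and its relatives PUB22 (−1.61 ± 0.33) and PUB19 (−1.52 ± 0.36) were array-proof too. BIK1, a kinase downstream of immune receptors, was lower by 2.49 (log2 −2.49 ± 0.32, limma adjusted p = 9.11e-05).

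Secreted signals and protective proteins gave further members. The RALF-like peptide genes RALFL22, RALFL31 and RALFL33 were lower among 7 measured (−1.46, −0.86 and −1.20), and 0 of the 3 passed without CEI replicate 2. All 13 cold and drought protein genes were below 0 and 4 passed, led by the dehydrin gene LTI30 with 513, 258 and 356 in CEI cells, against 2718 and 1863 in SHR 0 h and 4391 and 4899 in SCR 0 h (−3.12 ± 0.40). LTI30 was the array-proof one, and 1 of the 4 calls stood without CEI replicate 2. The metallothionein gene MT1C had 249, 176 and 53.3, against 3096 and 1277 in SHR 0 h and 3447 and 1217 in SCR 0 h (−3.81 ± 0.59). LCR69, a small cysteine-rich protein, had 52.3, 10.7 and 23.1, against 1519 and 342 in SHR 0 h and 461 and 432 in SCR 0 h (−4.05 ± 0.44). CEI cells were below every 0 h array for all 3 of these genes.

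Detoxification and breakdown genes leaned the same way. Of 39 UDP-glycosyltransferases 7 were lower and 1 higher, with UGT87A2 (−2.08 ± 0.40) and UGT76B1 (−1.85 ± 0.38) among 5 array-proof lower members and UGT71C3 (0.99 ± 0.24) on the other side. Of 8 glutathione transferases 2 were lower, GSTU22 (−2.53 ± 0.45) and GSTU25 (−2.08 ± 0.31), both consistent, and 6 did not pass. Among the 6, GSTU20 had 1.33 ± 0.47 (limma adjusted p = 0.055), with its CEI arrays above all 4 arrays at 0 h. Of 18 genes grouped under lipid and amino acid breakdown 8 were lower and 1 higher. The group also holds pyruvate and formate enzymes, so its count is not one of lipid and amino acid breakdown alone. ICL (AT3G21720), isocitrate lyase of the glyoxylate cycle, had 4.35, 6.78 and 5.06 in CEI cells, against 191 and 143 in SHR 0 h and 152 and 116 in SCR 0 h (−3.36 ± 0.55). Pyruvate phosphate dikinase PPDK (−2.82 ± 0.52), formate dehydrogenase FDH (−2.24 ± 0.52), pyruvate decarboxylase PDC2 (−1.80 ± 0.43) and the lipid store lipase SDP1 (−1.39 ± 0.22) were array-proof too. The exception, ALDH6B2 of valine breakdown, had 2881, 2918 and 3371, against 1444 and 1339 in SHR 0 h and 1438 and 1546 in SCR 0 h (1.08 ± 0.19). Of 10 autophagy genes 4 were lower, all of the ATG8 family that coats the autophagosome, with ATG8H at −1.88 ± 0.40 array-proof and 2 of the 4 calls standing without CEI replicate 2.

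Organelle transcripts were the largest group. Of 68 plastid genome probe sets 66 were below 0, 33 were called lower and 0 higher, 10 were consistent and the median was −0.97. The photosystem gene psbA had 30.2, 16.3 and 92.9 in CEI cells, against 308 and 159 in SHR 0 h and 427 and 162 in SCR 0 h (−2.40 ± 0.48). The cytochrome assembly gene ccsA had 353, 298 and 367, against 4217 and 2139 in SHR 0 h and 1924 and 1409 in SCR 0 h (−2.68 ± 0.32, limma adjusted p = 5.48e-05), and rbcL, the large subunit of Rubisco, 265, 158 and 238, against 1392 and 762 in SHR 0 h and 421 and 354 in SCR 0 h (−1.51 ± 0.40). In none of these did the groups overlap, but rbcL was not consistent and was lost without CEI replicate 2 or SHR 0 h replicate 1. The group's summed signal was 28936 to 36422 on CEI arrays, 106385 and 71702 on SHR 0 h arrays and 66684 and 49638 on SCR 0 h arrays. The plastid calls were 17 without SCR 0 h replicate 1 and were 37 without SHR 0 h replicate 2, with 15 array-proof. Of 30 nuclear photosynthesis genes 7 were lower, among them Rubisco activase RCA (−1.76 ± 0.38) and the photosystem protein gene PSBY (−1.55 ± 0.30), and 4 were array-proof. Of 21 mitochondrial genome probe sets 4 were lower, cox1 (−2.42 ± 0.36), matR (−2.43 ± 0.33), nad4 (−1.88 ± 0.38) and ccb382 (−1.38 ± 0.34), all array-proof. How the RNA amplification treats organelle transcripts in the 2 kinds of sample was not tested.

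The largest lower differences were again at loci without a symbol. AT2G38870 had 12.1, 9.19 and 19.9 in CEI cells, against 1883 and 531 in SHR 0 h and 2351 and 1551 in SCR 0 h (−5.90 ± 0.48, limma adjusted p = 1.71e-06). AT2G19970 had 2.43, 3.02 and 2.55, against 1745 and 334 in SHR 0 h and 887 and 260.5 in SCR 0 h (−5.61 ± 0.80). AT2G15560 had the smallest pooled adjusted p among the consistent lower loci, with 33.5, 44.1 and 13.3, against 422 and 533 in SHR 0 h and 541 and 587 in SCR 0 h (−3.79 ± 0.27, limma adjusted p = 5.34e-07). For 115 of the 692 the signal was above the 40th percentile on all 4 arrays at 0 h and on no CEI array, among them ICL, petN, matR, petL, WRKY47, UGT76D1 and PSBY. The 4 arrays at 0 h alone were enough to bring these into the test, and the rule chose them as low in CEI cells. The count therefore only describes them, and the same count over all tested probe sets was not made.

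**Figure D4:**
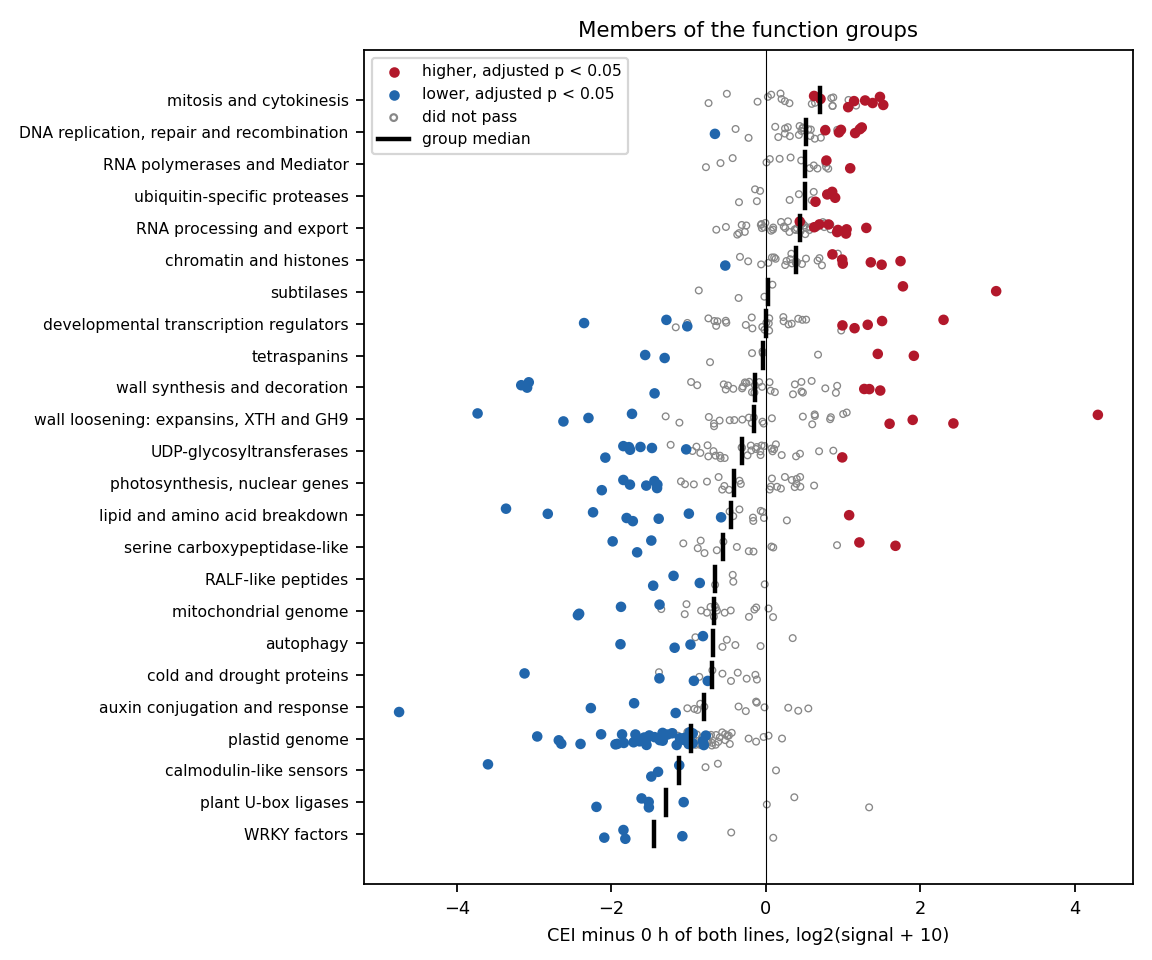
Difference between CEI cells and both lines at 0 h, in log2(signal + 10), for each member of the 24 function groups, ordered by group median (black bars). Filled points passed the pooled contrast at an adjusted p under 0.05; division, replication and RNA groups lie to the right with medians of 0.44 to 0.71, and the plastid genome, calmodulin-like, U-box and WRKY groups to the left with medians of −0.97 to −1.45.

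The remaining lists were small. Of 4 gibberellin genes and 2 cytokinin response genes none passed the pooled contrast in limma, and 0 did at an unadjusted p under 0.05. The gibberellin receptors GID1A, GID1B and GID1C ranged from −0.63 to 0.25 and the cytokinin response regulators ARR15 and RR16 were at −0.88 ± 0.51 and −0.68 ± 0.53. ARR15 (11.9 to 21.5), RR16 (3.87 to 28.3) and GID1C (19.6 to 43.1) were under the 40th percentile of the array on every CEI array. That these genes did not pass is therefore not read as an unchanged level. The 1 measured HD-ZIP III gene, PHV, had −0.64 ± 0.28. The auxin list of 7 had 2 lower, GH3.3 and IAA30.

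The induced lines offered arrays whose levels did not enter the CEI differences. Their spread did enter the CEI calls, because the same fit gave the variance of each probe set for all contrasts. The shares called below are therefore not independent of how the consistent probe sets were chosen. The part of the shared variance in these shares was not tested. Between SHR 12 h and SCR 12 h limma called 938 probe sets (5.87%) higher and 1179 (7.38%) lower in the SHR line. Of the 452 consistent higher probe sets 74 (16.4%) were called higher there and 10 lower, with a median difference of 0.66. Of the 692 consistent lower ones 253 (36.6%) were called lower and 7 higher, with a median of −1.04, beside a median of 0.18 over all tested probe sets. At 1, 3 and 6 h limma called 0.0938%, 0.0626% and 0.0751% of all tested probe sets higher and 0.0438%, 0.0813% and 0.25% lower, and at most 1 of the 452 and 9 of the 692 were called on the CEI side. That the SHR line at 12 h lies towards CEI cells was already known from these arrays and is no independent finding here.

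Median signals of the sets over time show the course. For the 452 higher probe sets the median over probe sets of the mean signal was 398 in CEI cells, and in the SHR line it was 126, 103, 149, 178 and 207 at 0, 1, 3, 6 and 12 h. In the SCR line it was 134, 112, 132, 129 and 123. For the 692 lower ones it was 88.2 in CEI cells. Over the same hours it was 394, 617, 446, 354 and 245 for the SHR line. For the SCR line it was 423, 571, 493, 528 and 584. Neither line reached the CEI level at any time.

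**Figure D5:**
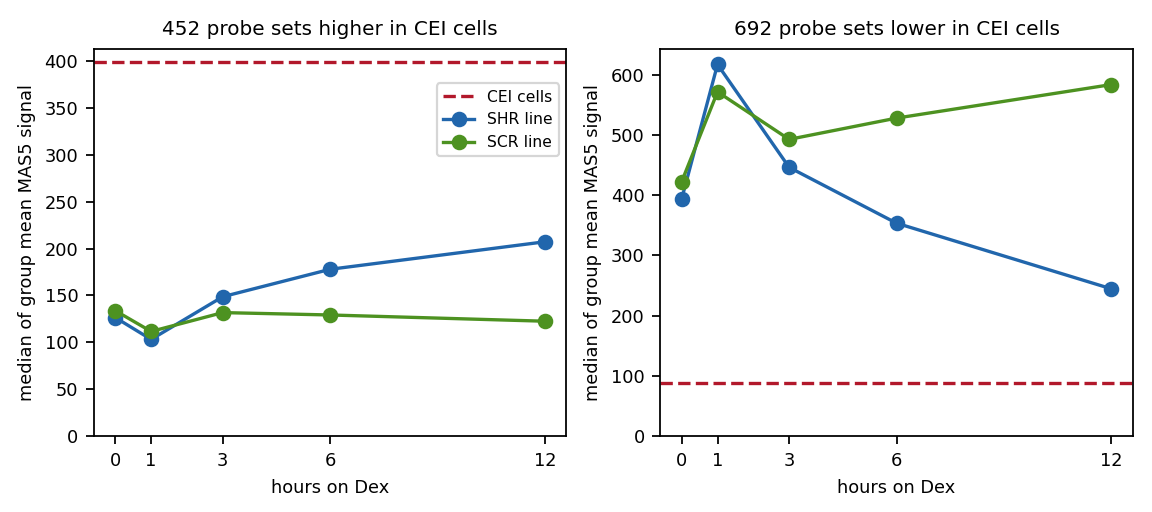
Median over probe sets of the group mean signal against hours on Dex in the SHR and SCR lines, for the 452 consistent higher (left) and 692 consistent lower (right) probe sets, with the CEI median as a dashed line. The SHR line stands at 207 and the SCR line at 123 at 12 h in the left plot, and at 245 and 584 in the right plot, against 398 and 88.2 in CEI cells.

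The function groups parted in this second comparison. Of the lower-in-CEI members, 4 of 4 autophagy genes, 4 of 4 calmodulin-like genes and 4 of 4 cold and drought genes were also called lower in SHR 12 h than in SCR 12 h. Smaller shares were called lower among RALF-like (2 of 3), auxin (2 of 4), U-box (2 of 5) and WRKY (1 of 4) genes. The same held for wall-loosening (1 of 4), wall synthesis (1 of 4) and UDP-glycosyltransferase (1 of 7) genes. Of the genes grouped under lipid and amino acid breakdown 0 of 8 were called lower, and of nuclear photosynthesis genes 0 of 7, with a median of 1.13. ATG8H had 184 ± 60.7 at SHR 12 h and 2195 ± 103 at SCR 12 h (SD, n = 2 each), a difference of −3.54 ± 0.52 (SE, limma adjusted p = 0.000645). GH3.3 (494 ± 43.4 against 6353 ± 3089, −3.57 ± 0.71) and LTI30 (1813 ± 913 against 10786 ± 1818, −2.65 ± 0.53) were lower in the SHR line too. The organelle groups did not follow: of the 33 plastid genome probe sets lower in CEI cells 0 were called lower and 3 higher in SHR 12 h, with a median of 0.85, and of the 4 mitochondrial ones none was called (1 higher at an unadjusted p under 0.05), with a median of 0.77. Of the 8 mitosis genes none was called at 12 h and 6 were higher at an unadjusted p under 0.05, with a median of 1.07; AUR1, for example, had 562 ± 119 in SHR 12 h and 248 ± 26.6 in SCR 12 h (1.14 ± 0.46, limma adjusted p = 0.0982). TOP3A (1.40 ± 0.42) and POLD3 (1.46 ± 0.43) of the replication group and Y14 (0.95 ± 0.30) were called higher in the SHR line.

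Genes high in CEI cells had differing levels in the induced lines. XTH21 had 11.4 ± 6.94 at SHR 12 h and 22.5 ± 6.32 at SCR 12 h (SD, n = 2 each), against 451 ± 121 in CEI cells (n = 3). BBM had 95.5 ± 12.7 at SHR 12 h and 66.5 ± 1.68 at SCR 12 h, against 456 ± 115 in CEI cells. For both genes the CEI arrays lay above all 20 arrays of the inducible lines. SBT4.12 had 60.1 ± 23 at SHR 12 h and 425 ± 92.0 at SCR 12 h, a difference of −2.66 ± 0.72 (SE, limma adjusted p = 0.0254) opposite in sign to its CEI difference. AT4G11290 had 303 ± 194 at SHR 12 h and 1192 ± 283 at SCR 12 h (−2.07 ± 0.51), against 21.0 ± 9.83 at SHR 0 h and 195 ± 121 at SCR 0 h, so both lines stood above their own 0 h mean. The change from 0 h within a line was not tested. AT3G56480 was higher on both sides, at 241 ± 71.3 in SHR 12 h and 57.4 ± 28.2 in SCR 12 h (1.93 ± 0.43).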

How the data were processed

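RNA was hybridised to ATH1 arrays, 1 per sample, after amplification in 2 cycles per the labels. The authors deposited MAS5 signal intensities, not logged, per the submitters' processing notes. The MAS5 version is not given in the sources used here, and no detection calls were used. The table held 22810 probe sets, 64 of them controls, and no further normalization was applied. A probe set was tested when above the 40th percentile of its array on at least 2 arrays (15983). The log2 of signal plus a pseudocount of 10 was fitted with limma 3.58.1 in R 4.3.3 (lmFit, eBayes with trend) as 11 group means of 23 arrays with 12 residual degrees of freedom. Contrasts were CEI minus the mean of both lines at 0 h, CEI minus each line, and SHR minus SCR at each time, with Benjamini-Hochberg adjustment over all tested probe sets, two-sided. The number of arrays limits precision: the median SE was 0.29 for the pooled contrast and 0.35 against 1 line.

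Gene names came from the platform annotation supplied for the probe sets, updated through RefSeq IDs (13436 of 13513 single-gene probe sets matched). Of 279 loci on 16 lists 48 had a named probe set. The genes named are the 3 markers and the SHR/SCR pathway list, up to 4 members of every other list, up to 3 of each symbol family of at least 5, and the first 20 consistent loci each way by the smaller line difference; those from the 24 function groups, and other symbols among the consistent probe sets, were chosen after their values were seen. The members and lists were chosen with earlier results of these data known. The fit was tried on simulated data of 15983 probe sets, of which 100 were changed by 2 and 100 by 1 on the log2 scale. The pooled contrast called 85% of those changed by 2, and all 3 contrasts together 60%. For a change of 1 the shares were 31% and 6%. In the real data 20.3% were called, and adjusted p-values depend on the share changed, so these shares need not hold there. Alternatives covered scaling, filter, pseudocount, fit, replicate block and each array left out. A probe set whose ID ends in _s_at can bind several transcripts.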

Additional observations from a re-analysis of the deposited data

Results flagged for a closer look

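At 0 h limma called a difference between the SHR and SCR lines at 1 probe set, 253819_at, for which the annotation lists no gene; it is named because of this call. Its signal was 3.63 and 19.7 on the SHR 0 h arrays, against 209 and 272 on the SCR 0 h arrays, a log2 difference of −3.62 ± 0.50 (SE, limma adjusted p = 0.021). The CEI arrays, at 2.73, 6.54 and 5.32, lay with the SHR line. At an unadjusted p under 0.05 the lines differed at 987 probe sets at 0 h.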

How the results depend on the processing

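Pseudocounts of 1 and 50, quantile normalization, median centring, no filter, a 60th percentile filter, a fit of the 7 arrays alone, eBayes without trend and a replicate block all left the 8 counts of calls within 1.5 times, except that the fit of the 7 arrays alone called 736 consistent higher probe sets, against 452. Leaving out an array gave 745 to 1218 higher and 1021 to 1634 lower in the pooled contrast, 340 to 832 higher and 341 to 1071 lower against the SHR line, 70 to 746 higher and 218 to 1135 lower against the SCR line, and 61 to 292 higher and 197 to 582 lower in all 3. The lowest of these came without SCR 0 h replicate 1, except against the SHR line, where they came without SHR 0 h replicate 2 (higher) and replicate 1 (lower). No call of a named gene changed sign. Of 237 named calls 140 stood under all 16 settings, and of 26 named genes that were not called 19 stayed so. The counts of function groups without an array were added after seeing the data. The arrays share only replicate numbers: differences between replicates 1 and 2 correlated by 0.20 (CEI and SHR 0 h), 0.02 (CEI and SCR 0 h) and 0.06 (SHR and SCR 0 h). Only CEI cells have a replicate 3, so the block also takes that array out of the CEI mean and changes both things at once. With the replicate block the pooled contrast called 1529 higher and 1541 lower, and 506 higher and 715 lower were consistent.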

Other observations

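Consistent genes were looked up for neighbours in the order of protein-coding genes in RefSeq. Of 139 higher genes with a tested neighbour 8 (5.76%) had a neighbour in the same set, beside 3.21% of all tested genes with a tested neighbour. Of 220 lower genes 16 (7.27%) did, beside 5.38%. The adjacent lower pairs include AT2G44370 (−3.08) with AT2G44380 (−2.33) and AT4G38540 (−3.06) with AT4G38550 (−2.72), on the log2 scale, and the adjacent higher pairs AT1G72840 (1.62) with AT1G72850 (2.40). These pairs were chosen after their values were seen. Whether probe sets of neighbouring similar genes bind each other's transcripts was not tested.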
